A study of Mus musculus with 28 samples.

Results

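Dlk1, Meg3 and Rian belong to an imprinted gene cluster that ends at Dio3, and their transcripts were followed through the reprogramming of mouse fibroblasts into induced pluripotent stem (iPS) cells. Every probe set that the array annotation gives to one of these genes and to no other was taken, which gave 8 of the 22626 probe sets tested and 3 of the 11807 genes measured. Dlk1 had 1 probe set (1449939_s_at), Meg3 had 4 (1426758_s_at, 1452183_a_at, 1436713_s_at and 1436057_at) and Rian had 3 (1452899_at, 1428055_at and 1427580_a_at). The brightest probe set of a gene, named first here, stands for it unless another is named.

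Messenger RNA was measured on 24 microarrays in 15 groups. All cells were of the strain C57BL6/129. The fibroblasts came from mouse embryos that carried the OKSM cassette of reprogramming factors and the Rosa26-M2rtTA allele, each in one copy (het/het) or in both (ho/ho), and the labels do not say which of these genotypes an array had. Doxycycline switched the factors on in embryonic stem cell medium with LIF. iPS cells had 3 arrays, of the lines labelled 1-3, 1-5 and 1-6, and were SSEA1+, GFP+ and Thy1-negative per the labels. They were preplated to remove feeder cells, and the labels give no day for them. GFP+ cells of day 12, also SSEA1+ and Thy1-negative, had 1 array, and the labels do not name the gene that drives GFP. Cells of days 3, 6, 9 and 12 were sorted into SSEA1+ cells (SSEA1 is a carbohydrate antigen of mouse pluripotent cells), cells negative for both SSEA1 and Thy1 (here Thy1- cells) and Thy1+ cells (Thy1 is a surface protein of fibroblasts). Each fraction had the 2 arrays M2 and M3 on days 3 and 6 and the lone array M2 on days 9 and 12. Mouse embryonic fibroblasts (MEFs) of day 0, which were Thy1+, had 2 arrays, M2 and M3. The labels do not give the animal or culture behind an array, so the p-values below reflect how far arrays of a group lay apart, and that may be technical spread alone.

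In this cluster the copy a gene is read from depends on the parent it came from. Dlk1, Rtl1 and Dio3 are read from the paternal chromosome, and the long noncoding RNAs Meg3 (also called Gtl2), Rian and Mirg from the maternal one. An intergenic region between Dlk1 and Meg3 that is methylated on the paternal chromosome controls both sets. Dlk1 encodes a transmembrane protein related to the Notch ligands, also known as preadipocyte factor, which restrains the formation of fat cells. Rian contains many small nucleolar RNAs and microRNAs. Loss of the maternal transcripts is a known feature of some mouse iPS lines. In the RefSeq gene order the cluster reads Begain, Dlk1, Meg3, Rtl1, Rian, Mirg and Dio3, and Rtl1 overlaps the annotated spans of both Meg3 and Rian. Of these 7 genes, the array annotation named Dlk1, Meg3 and Rian alone, and no allele can be told apart from these signals.

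The start regions of the 3 genes are shown because the locus is controlled by DNA methylation and the regions differ in the bases that carry it. They are windows of 300 bases around the annotated starts, RefSeq sequences of the build GRCm38.p6 on the + strand, with the bases of each CG pair, the target of DNA methylation, in capitals.
Dlk1 (chr12:109452573-109452872): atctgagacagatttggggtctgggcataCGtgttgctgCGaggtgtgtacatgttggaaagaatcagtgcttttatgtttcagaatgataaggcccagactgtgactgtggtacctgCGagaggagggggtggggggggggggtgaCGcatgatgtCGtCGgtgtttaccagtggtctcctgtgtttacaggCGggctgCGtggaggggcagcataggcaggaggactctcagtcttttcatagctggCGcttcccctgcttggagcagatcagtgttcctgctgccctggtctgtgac
Meg3 (chr12:109540746-109541045): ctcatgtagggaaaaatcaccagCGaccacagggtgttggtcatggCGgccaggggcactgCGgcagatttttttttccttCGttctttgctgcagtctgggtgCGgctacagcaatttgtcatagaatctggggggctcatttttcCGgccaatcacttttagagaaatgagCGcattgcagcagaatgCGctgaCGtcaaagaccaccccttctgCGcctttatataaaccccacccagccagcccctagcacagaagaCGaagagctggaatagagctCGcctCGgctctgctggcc
Rian (chr12:109603695-109603994): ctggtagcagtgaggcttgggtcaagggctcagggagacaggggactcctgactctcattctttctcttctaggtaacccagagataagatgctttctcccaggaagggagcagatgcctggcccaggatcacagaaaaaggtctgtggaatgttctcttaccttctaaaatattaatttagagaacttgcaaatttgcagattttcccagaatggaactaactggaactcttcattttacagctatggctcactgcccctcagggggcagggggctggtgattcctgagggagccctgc
Dlk1 held 9 CG pairs, Meg3 13 and Rian 0, against a median of 7 over the 32851 start regions of the RefSeq table. A further Meg3 entry of that table, at chr12:109545148-109545447, held 1 CG pair. The Meg3 region above also held 1 copy of TGACGTCA, the palindromic cyclic AMP response element, which 1.79% of all start regions have on either strand. It held TATAAA 2 times, once on each strand in an overlapping stretch, and 13.62% of all start regions have that motif. TGCCGC, the motif of the imprint-protecting protein ZFP57, occurred 1 time in Meg3 and in 11.61% of all start regions. The GC box GGGCGG, found in 35.66% of all start regions, occurred 0 times in the regions of the 3 genes, as did the other 3 motifs in Dlk1 and Rian. A match is a match of letters only, and the array data do not measure binding or methylation.

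All values are log2 signals, so a difference of 1 is a 2-fold difference. Signals of different probe sets cannot be ranked against each other. Fibroblast markers, a list of 20 genes of which 17 were measured, averaged 6.44 to 7.28 over the list on iPS arrays and 6.71 on the GFP+ array, against 11.54 to 11.58 on the MEF arrays. The mean of 14 pluripotency markers was 11.19 to 11.41 on the iPS arrays and 10.89 on the GFP+ array, against 4.32 to 4.42 on the MEF arrays, so these arrays carry the markers of their labels. Macrophage and endothelial markers stayed between 4.46 and 5.86 on all 24 arrays. The iPS arrays stood apart in sex-linked transcripts. Xist, which coats the silenced X chromosome, was at 7.57 to 7.81 on them, against 10.87 on the GFP+ array and 11.05 and 11.42 on the MEF arrays. The Y-linked gene Eif2s3y was at 6.04 to 7.26 on the iPS arrays, against 3.10 on the GFP+ array and 3.24 and 3.20 on the MEF arrays. The labels do not say whether the iPS lines came from the same embryos as the other arrays. The Y-linked signal was higher on all 3 iPS arrays, though below the array median on those of lines 1-3 and 1-6. Embryo of origin was not tested. A difference between iPS cells and MEFs or GFP+ cells is therefore one between groups and not a course followed in 1 culture. Stage and embryo of origin cannot be told apart in it. The 3′ minus 5′ log2 signal of the Actb control, a measure of RNA integrity, also moved with the groups, at 1.04 to 1.18 on the iPS arrays and 0.987 on the GFP+ array, against 0.81 and 0.84 on the MEF arrays. The part of the sex-linked transcripts and of this measure in the results on Dlk1, Meg3 and Rian was not tested. The files hold no detection calls, so a signal below the median of its array, which was 6.84 to 6.99 over the 24 arrays, is treated here as not shown to be above background, and no fold or share is built on it. In sorted populations, fewer cells that make a transcript and less of it per cell cannot be told apart.

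**Figure D1:**
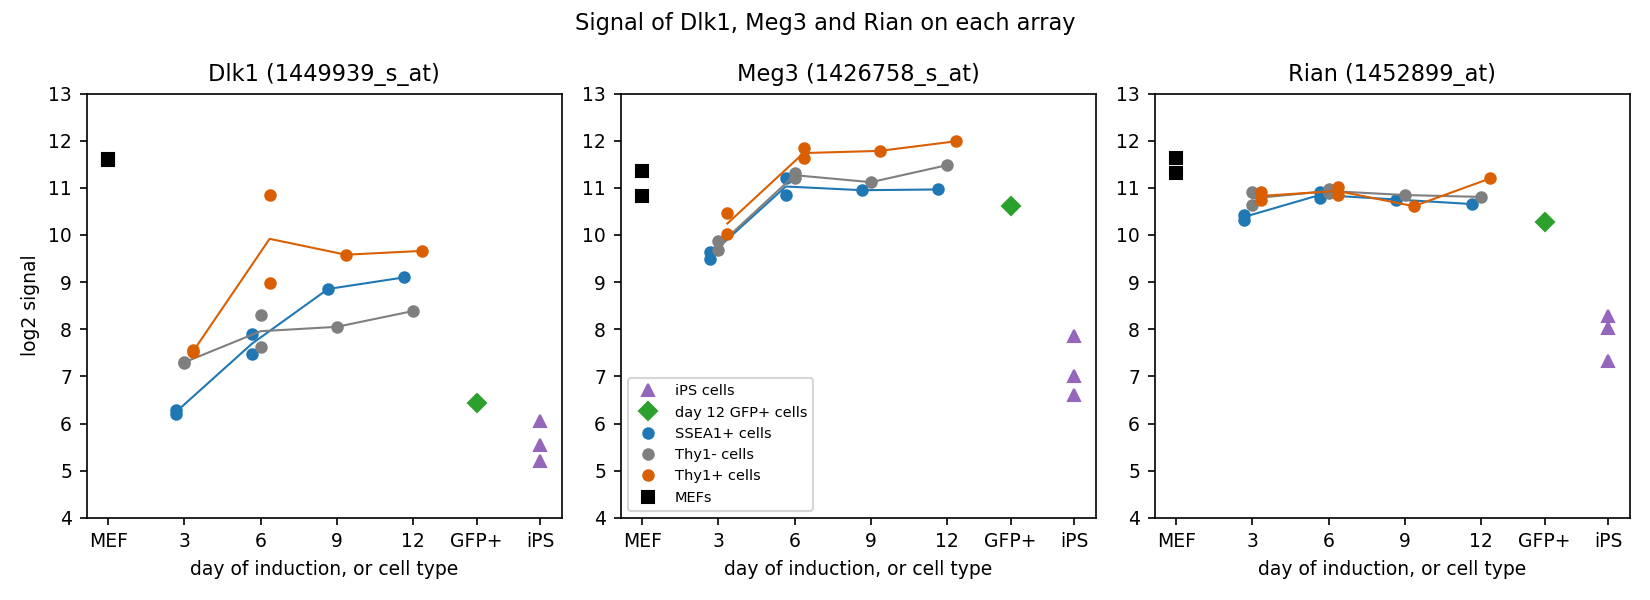
Log2 signal (vertical axis) of the brightest probe set of Dlk1, Meg3 and Rian on each of the 24 arrays, by day of induction, with MEFs at the left and day 12 GFP+ and iPS cells at the right. Points are arrays and lines join the means of a fraction. Dlk1 of the GFP+ array lies at 6.44, above the iPS arrays but, like them, below the array median. Meg3 of that array at 10.60 and Rian at 10.28 lie above all 3 iPS arrays.

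The first question was how far the 3 transcripts of established iPS cells were from those of the starting fibroblasts. All were lower in iPS cells. Dlk1 had log2 signals of 6.05, 5.54 and 5.20 in lines 1-3, 1-5 and 1-6, against 11.61 and 11.58 in MEFs. Meg3 had 7.87, 7.01 and 6.61 in the same lines, against 10.83 and 11.35 in MEFs. Rian had 8.04, 8.28 and 7.32, against 11.31 and 11.63 in MEFs. The groups did not overlap for any of the 3, and the gap was wider than the range within either group. Dlk1 differed by -5.99 ± 0.40 on the log2 scale (SE; limma, Benjamini-Hochberg adjusted p = 1.27e-08). Its signal lay below the array median on all 3 iPS arrays, so no fold is given. Meg3 differed by -3.93 ± 0.28 (limma adjusted p = 3.27e-08), with line 1-6 below the array median, and Rian by -3.60 ± 0.22 (12.1-fold lower, limma adjusted p = 4.92e-09). A call here needs an adjusted p under 0.05 over all probe sets tested and at least a 2-fold difference. By this rule 8 of 8 probe sets of the locus were called, all lower, where 29.3% of all probe sets tested were called in either direction and 14.2% lower.

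The other probe sets of the long noncoding RNAs fell with the brightest ones. The Meg3 probe sets 1452183_a_at and 1436713_s_at fell by 3.98 and 4.42 on the log2 scale, and 1436057_at, the dimmest of the 4, by 1.99. The Rian probe sets 1428055_at and 1427580_a_at fell by 5.23 and 5.05. On 1428055_at the iPS arrays read 4.46, 4.84 and 4.65 in lines 1-3, 1-5 and 1-6, against 9.69 and 10.06 in MEFs. On 1427580_a_at they read 4.32, 5.13 and 4.25, against 9.50 and 9.73 in MEFs. These Rian signals in iPS cells lay below the array median, as did those of Meg3 1436713_s_at and 1436057_at and, on lines 1-5 and 1-6, of Meg3 1452183_a_at, so the size of these differences is not settled by the values. Over the 24 arrays the Meg3 probe sets followed each other with Pearson r of 0.90 to 0.996 and the Rian probe sets with r of 0.966 to 0.991, a description of probe sets read from the same 24 samples.

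The iPS lines differed among themselves. Line 1-3 was the highest of the 3 on Dlk1 and on 3 of the 4 Meg3 probe sets, and line 1-5 was the highest on all 3 Rian probe sets. On Meg3 1436057_at the order was another one, with 5.61, 5.19 and 6.02 in lines 1-3, 1-5 and 1-6. Beside this, 15 of the 17 fibroblast markers were higher on the array of line 1-3 than on both others, and their mean was highest there, at 7.28. Among defining fibroblast genes, the collagen Col1a1 read 10.09, 9.37 and 8.71 in lines 1-3, 1-5 and 1-6, and Postn, a matrix protein, read 7.46, 5.82 and 5.68. Their part in the higher Dlk1 and Meg3 of line 1-3 was not tested. With each iPS array left out in turn, as with every other setting tried, the difference from MEFs stayed between -6.22 and -5.80 for Dlk1, between -4.28 and -3.58 for Meg3 and between -4.62 and -3.32 for Rian, and all 8 probe sets stayed called.

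The second question was whether day 12 GFP+ cells, the sorted cells closest to iPS cells by the labels, already had the levels of established lines. Meg3 and Rian were lower in iPS cells than in GFP+ cells, and the difference of Dlk1 did not pass. Dlk1 was at 6.05, 5.54 and 5.20 in iPS lines 1-3, 1-5 and 1-6 and at 6.44 on the GFP+ array. The iPS arrays lay below the GFP+ array, but the difference of -0.84 ± 0.50 did not pass (limma adjusted p = 0.266). All 4 signals lay below the array median, so the array cannot show how close the Dlk1 levels of these groups were. With 1 GFP+ array, its error rests on the spread within the other groups.

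Meg3 read 7.87, 7.01 and 6.61 in iPS lines 1-3, 1-5 and 1-6, against 10.60 on the GFP+ array. The difference, iPS minus GFP+ cells, was -3.44 ± 0.36 (limma adjusted p = 2.45e-05). On the other Meg3 probe sets it was -3.56, -2.55 and -2.02. Rian read 7.32 to 8.28 in the iPS lines, against 10.28 on the GFP+ array, and differed by -2.41 ± 0.28 (5.30-fold lower in iPS cells, limma adjusted p = 5.16e-05). On 1428055_at Rian differed by -4.45 ± 0.20 (limma adjusted p = 3.09e-08) and on 1427580_a_at by -3.21, with the iPS signals of both below the array median. In all, 7 of 8 probe sets of the locus were lower in iPS cells, where 8.05% of all probe sets were called in either direction and 3.08% were called lower. The 7 stayed called under every setting tried, including without each iPS array, with a highest adjusted p of 0.0191.

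The mean of the fibroblast markers was 6.44 to 7.28 on the iPS arrays and 6.71 on the GFP+ array. Of the 17 markers, 3 were higher on the GFP+ array than on all 3 iPS arrays. Dcn, a small matrix proteoglycan, was among them, with 6.15, 4.93 and 5.13 in iPS lines 1-3, 1-5 and 1-6, against 7.70 on the GFP+ array. Col1a1 read 8.71 to 10.09 in the iPS lines, against 8.61 on the GFP+ array. The part of the fibroblast markers in the Meg3 and Rian differences was not tested. Nanog, a core pluripotency factor, read 11.87, 11.49 and 11.99 in iPS lines 1-3, 1-5 and 1-6 and 11.49 in GFP+ cells.

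**Figure D2:**
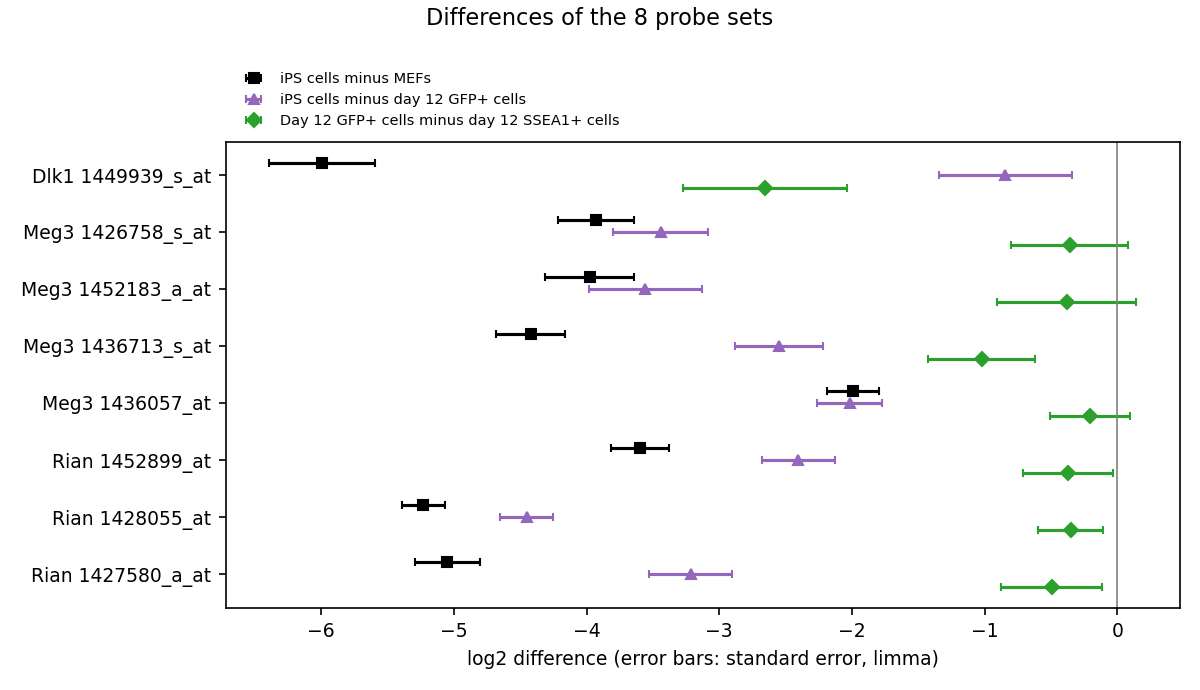
Log2 differences (horizontal axis) of the 8 probe sets in 3 comparisons, with standard errors from limma as bars. Between iPS and GFP+ cells the Meg3 and Rian probe sets lie between -4.45 and -2.02 and Dlk1 at -0.84. Between GFP+ and SSEA1+ cells of day 12 Dlk1 lies at -2.66 and the others between -1.02 and -0.20.

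GFP+ cells were also set against the SSEA1+ cells of day 12. Each had 1 array, so the differences have no replicate of their own and the error again comes from the other groups. Dlk1 read 6.44 in GFP+ cells and 9.10 in SSEA1+ cells, a difference of -2.66 ± 0.62 (limma adjusted p = 0.015), with the GFP+ signal below the array median. Meg3 read 10.60 in GFP+ cells and 10.96 in SSEA1+ cells, with a difference of -0.36 ± 0.44 (limma adjusted p = 0.802). Rian read 10.28 in GFP+ cells and 10.66 in SSEA1+ cells, with a difference of -0.37 ± 0.34 (limma adjusted p = 0.688). Dlk1 was the 1 of 8 probe sets called, where 5.93% of all probe sets were, and whether its difference was unlike those of Meg3 and Rian was not tested. The largest of the other differences was that of Meg3 1436713_s_at, -1.02 ± 0.40, which did not pass (limma adjusted p = 0.171). The mean of the fibroblast markers was 6.71 in GFP+ cells and 7.59 in SSEA1+ cells, and its part in the Dlk1 difference was not tested.

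As a share of the log2 difference between the iPS and MEF means, the difference between GFP+ cells and MEFs was 33.1% for Rian on 1452899_at. No such share is given for Dlk1, Meg3 or the other Rian probe sets, whose iPS signals lay below the array median on some or all arrays. The value thus holds for 1452899_at alone. The share rests on 1 GFP+ array and is given without a test.

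**Figure D3:**
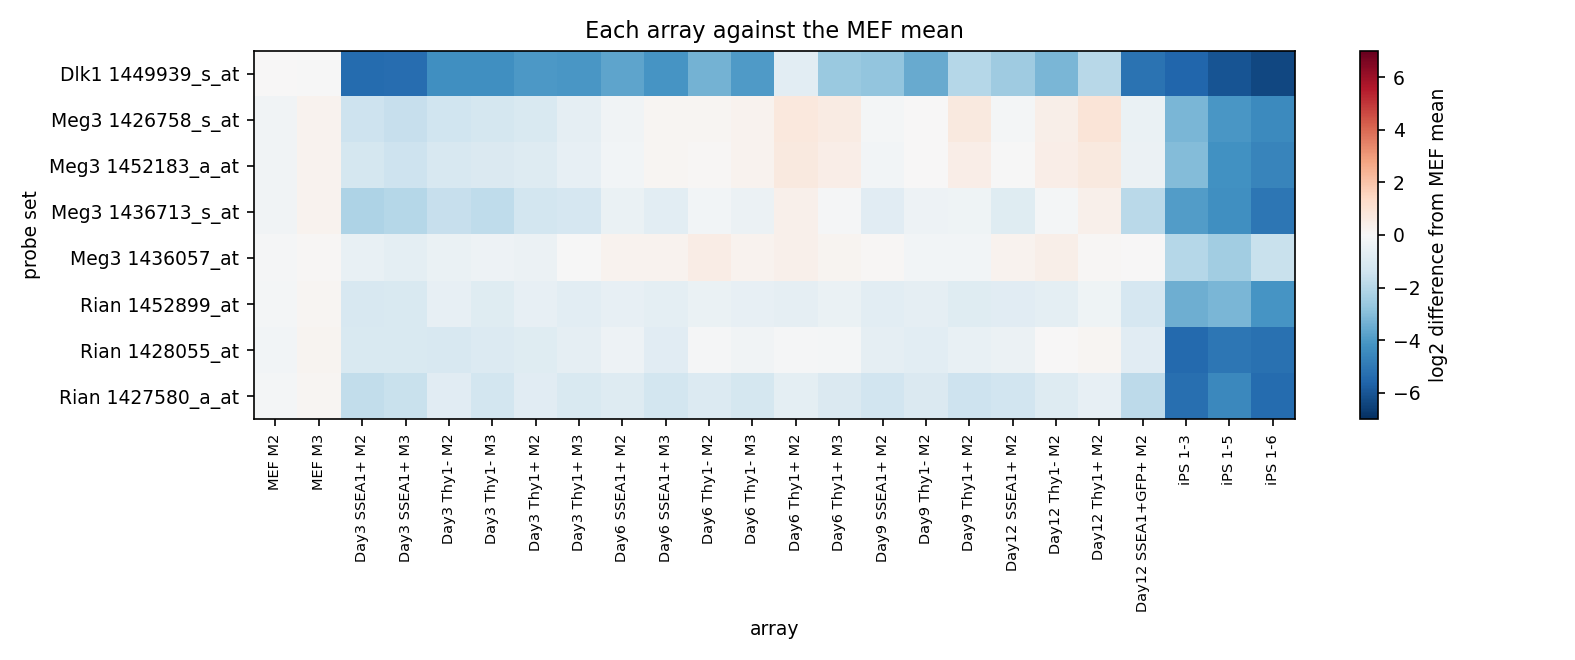
Log2 difference of each array from the mean of the MEF arrays (colour) for the 8 probe sets (rows) on the 24 arrays (columns, MEFs first and then by day). All 8 rows are lowest on the 3 iPS arrays, and Dlk1, Rian 1452899_at and Rian 1427580_a_at lie below the MEF mean on every later array.

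The third question concerned the first days of factor expression. By day 3 Dlk1 was lower than in MEFs in all 3 fractions by the rule for a call. On the brightest probe sets, Meg3 was lower in SSEA1+ and Thy1- cells and Rian in SSEA1+ cells. Other Rian probe sets were also called lower in Thy1- cells. Dlk1 read 6.20 and 6.28 in SSEA1+ cells, 7.31 and 7.29 in Thy1- cells and 7.56 and 7.52 in Thy1+ cells of day 3, against 11.61 and 11.58 in MEFs. The fractions did not overlap with MEFs or with each other. The differences from MEFs were -5.36 ± 0.44 in SSEA1+ cells (limma adjusted p = 3.94e-07), -4.29 in Thy1- cells and -4.05 in Thy1+ cells. The same 2 MEF arrays served all these comparisons. The Dlk1 signals of SSEA1+ cells of day 3 lay below the array median, as in iPS cells.

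Meg3 read 9.64 and 9.49 in SSEA1+ cells of day 3, 9.68 and 9.86 in Thy1- cells and 10.02 and 10.47 in Thy1+ cells, against 10.83 and 11.35 in MEFs. Its differences from MEFs were -1.53 ± 0.31 in SSEA1+ cells (limma adjusted p = 0.00162), -1.32 in Thy1- cells (limma adjusted p = 0.00607) and -0.85 in Thy1+ cells, which did not pass (limma adjusted p = 0.0712). Rian read 10.33 and 10.43 in SSEA1+ cells, 10.91 and 10.64 in Thy1- cells and 10.92 and 10.74 in Thy1+ cells, against 11.31 and 11.63 in MEFs. Its differences were -1.09 ± 0.24 in SSEA1+ cells (limma adjusted p = 0.00261), -0.70 in Thy1- cells (limma adjusted p = 0.0477) and -0.64 in Thy1+ cells. The last 2 were under 2-fold. In Thy1- cells Rian 1428055_at and 1427580_a_at each differed by -1.05 and were called (limma adjusted p = 0.000432 and 0.0106). Among the 8 probe sets, 7 were lower in SSEA1+ cells, where 14.9% of all probe sets were called in either direction and 8.07% lower. In Thy1- cells 6 were lower (background 10.9%, and 5.81% lower), and in Thy1+ cells 2, Dlk1 and Meg3 1436713_s_at (background 9.41%, and 4.84% lower).

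These day 3 counts rested in part on 1 MEF array. Without the M3 MEF array, on which Meg3 and Rian were higher than on M2, the counts were 4 in SSEA1+ cells, 2 in Thy1- cells and 1 in Thy1+ cells. Without it Rian differed by -0.93 in SSEA1+ cells and was under 2-fold, and the Meg3 difference in Thy1- cells did not pass (limma adjusted p = 0.0828), nor did it without the M2 array of Thy1- cells (limma adjusted p = 0.0537). The fibroblast markers had also moved by day 3, with a mean of 8.50 and 8.55 in SSEA1+ cells, against 11.54 and 11.58 in MEFs.

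Between day 3 and day 6 the direction turned for Meg3, which rose in every fraction. It read 10.84 and 11.22 in SSEA1+ cells of day 6, 11.21 and 11.32 in Thy1- cells and 11.83 and 11.64 in Thy1+ cells. These values all lay above those of the same fraction on day 3. The day 6 minus day 3 differences were 1.46 ± 0.31 in SSEA1+ cells (limma adjusted p = 0.0189), 1.50 in Thy1- cells (limma adjusted p = 0.00905) and 1.49 in Thy1+ cells (limma adjusted p = 0.00395). These calls rested on few arrays. Leaving out any of the 4 SSEA1+ arrays gave differences of 1.27 to 1.65 that did not pass (limma adjusted p = 0.0697 to 0.201). The Thy1- difference did not pass without the M2 array of day 3 (limma adjusted p = 0.0949) or the M3 array of day 6 (limma adjusted p = 0.0837), and the Thy1+ difference not without the M2 array of day 3 (limma adjusted p = 0.0520). Rian differed by 0.47, 0.16 and 0.10 on its brightest probe set, none of which passed. On Rian 1428055_at the rises of 0.89 in Thy1- cells and 0.67 in Thy1+ cells had limma adjusted p of 0.00600 and 0.0134 but were under 2-fold.

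Dlk1 read 7.90 and 7.48 in SSEA1+ cells of day 6, 8.30 and 7.61 in Thy1- cells and 10.85 and 8.99 in Thy1+ cells. The 2 Thy1+ arrays lay far apart, with M2 the higher, and both were above the Thy1+ arrays of day 3. Dlk1 differed between day 6 and day 3 by 2.38 ± 0.44 in Thy1+ cells (limma adjusted p = 0.00171). The difference was 1.45 without the day 6 M2 array and 3.31 without the day 6 M3 array, and with the compared groups alone in the fit it did not pass (limma adjusted p = 0.19). In SSEA1+ cells the difference was 1.45 ± 0.44 and did not pass (limma adjusted p = 0.108), and in Thy1- cells it was 0.66. The 3′ minus 5′ log2 signal of the Actb control was 1.49 on the day 6 Thy1+ M2 array and 0.79 on M3. Its part in the Dlk1 value was not tested. Called higher were 2 of 8 probe sets in SSEA1+ cells (background 1.56% in either direction and 1.18% higher), 2 in Thy1- cells (2.93% and 1.69%) and 4 in Thy1+ cells (8.8% and 4.12%). With the day 6 Thy1+ M2 array out of the fit, the count in SSEA1+ cells was 4, Dlk1 among them, and with the compared groups alone in the fit the count in Thy1+ cells was 0.

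The size of the day 3 to day 6 step was not shown to differ between SSEA1+ and Thy1+ cells. In a test of that difference, 0 of 8 probe sets were called by limma (background 1.45%), and 0 had an unadjusted p under 0.05. For Dlk1 the SSEA1+ step minus the Thy1+ step was -0.93 ± 0.62 (limma adjusted p = 0.445). It was 0.01 without the day 6 Thy1+ M2 array, and -1.86 without the M3 array of that group.

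From day 6 to days 9 and 12 no probe set of the locus was called. The counts were 0 of 8 in SSEA1+ cells (background 1.96%), 0 of 8 in Thy1- cells (1.07%) and 0 of 8 in Thy1+ cells (0.349%), and 1, 0 and 0 had an unadjusted p under 0.05 in limma. That 1 was Dlk1 in SSEA1+ cells, which read 8.85 on day 9 and 9.10 on day 12, above both arrays of day 6. The mean of days 9 and 12 minus day 6 was 1.29 ± 0.44 there (limma adjusted p = 0.129), and it passed without the day 6 Thy1+ M2 array in the fit (limma adjusted p = 0.00483). Dlk1 in Thy1+ cells differed by -0.30 ± 0.44, by 0.63 without the day 6 M2 array and by -1.23, a call, without the day 6 M3 array. Meg3 read 10.95 and 10.96 in SSEA1+ cells, 11.12 and 11.48 in Thy1- cells and 11.78 and 11.99 in Thy1+ cells on days 9 and 12. Rian read 10.75 and 10.66 in SSEA1+ cells, 10.85 and 10.81 in Thy1- cells and 10.61 and 11.20 in Thy1+ cells on these days. Over all sorted arrays the lowest Meg3 signal was 9.49 and the lowest Rian signal 10.28, both above every iPS array.

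Among the SSEA1+ arrays of days 3 to 12, with the GFP+ array left out, Dlk1, Meg3 and Rian each had their lowest signal on day 3. On the GFP+ array Rian read 10.28, below both SSEA1+ arrays of day 3. For Rian in the SSEA1+ fraction, the difference from MEFs was taken as a share of that between iPS cells and MEFs. This share was 22.7% on day 12, against 30.4% on day 3. Both days share the MEF and iPS arrays, day 12 rests on 1 array, and the shares are given without a test.

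Thy1+ cells, the fraction that kept the fibroblast surface protein, were compared with the other fractions as a mean over the 4 days. Dlk1 was lower in SSEA1+ cells, at a mean of 7.97 against 9.17 in Thy1+ cells, with a difference of -1.20 ± 0.27 (limma adjusted p = 0.00223). It was also lower in Thy1- cells, at 7.92, with a difference of -1.25 ± 0.27 (limma adjusted p = 0.00397). It was the 1 of 8 probe sets called in each comparison (background 9.24% and 2.78%). Without the day 6 Thy1+ M2 array the SSEA1+ difference was -0.97, under 2-fold, so the count of 1 rests on that array. Meg3 differed by -0.81 ± 0.19 between SSEA1+ and Thy1+ cells (limma adjusted p = 0.00348), which is under 2-fold, and Rian by -0.23 ± 0.15 (limma adjusted p = 0.238).

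The list of fibroblast markers holds Thy1, on which the cells were sorted. The mean of the markers was 7.59 to 8.87 in SSEA1+ cells, 9.09 to 9.78 in Thy1- cells and 9.60 to 10.72 in Thy1+ cells. Over all days the ranges of Thy1- and Thy1+ cells overlapped. The part of these markers in the fraction differences of Dlk1 and Meg3 was not tested. Between SSEA1+ and Thy1- cells 0 of 8 probe sets were called by limma (background 1.35%), and 1, Meg3 1436713_s_at, had an unadjusted p under 0.05. Whether the gap between SSEA1+ and Thy1+ cells was wider on days 9 and 12 than on day 3 was tested as well, and 0 of 8 probe sets were called by limma (background 7.2%), with 0 at an unadjusted p under 0.05.

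Thy1+ cells of days 9 and 12 were also set against MEFs. Dlk1 was lower in them, and the differences of Meg3 and Rian on their brightest probe sets did not pass. Dlk1 read 9.58 and 9.66 in them, against 11.61 and 11.58 in MEFs, a difference of -1.97 ± 0.44 (limma adjusted p = 0.00459), and it was the 1 of 8 probe sets called (background 8.8%). Meg3 read 11.78 and 11.99 against 10.83 and 11.35 in MEFs, a difference of 0.79 ± 0.31 that did not pass (limma adjusted p = 0.0898). Rian read 10.61 and 11.20 against 11.31 and 11.63, a difference of -0.57 ± 0.24 (limma adjusted p = 0.113). On Rian 1427580_a_at the difference was -0.99 ± 0.27 (limma adjusted p = 0.0169), just under 2-fold, and on 1428055_at it was -0.19.

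**Figure D4:**
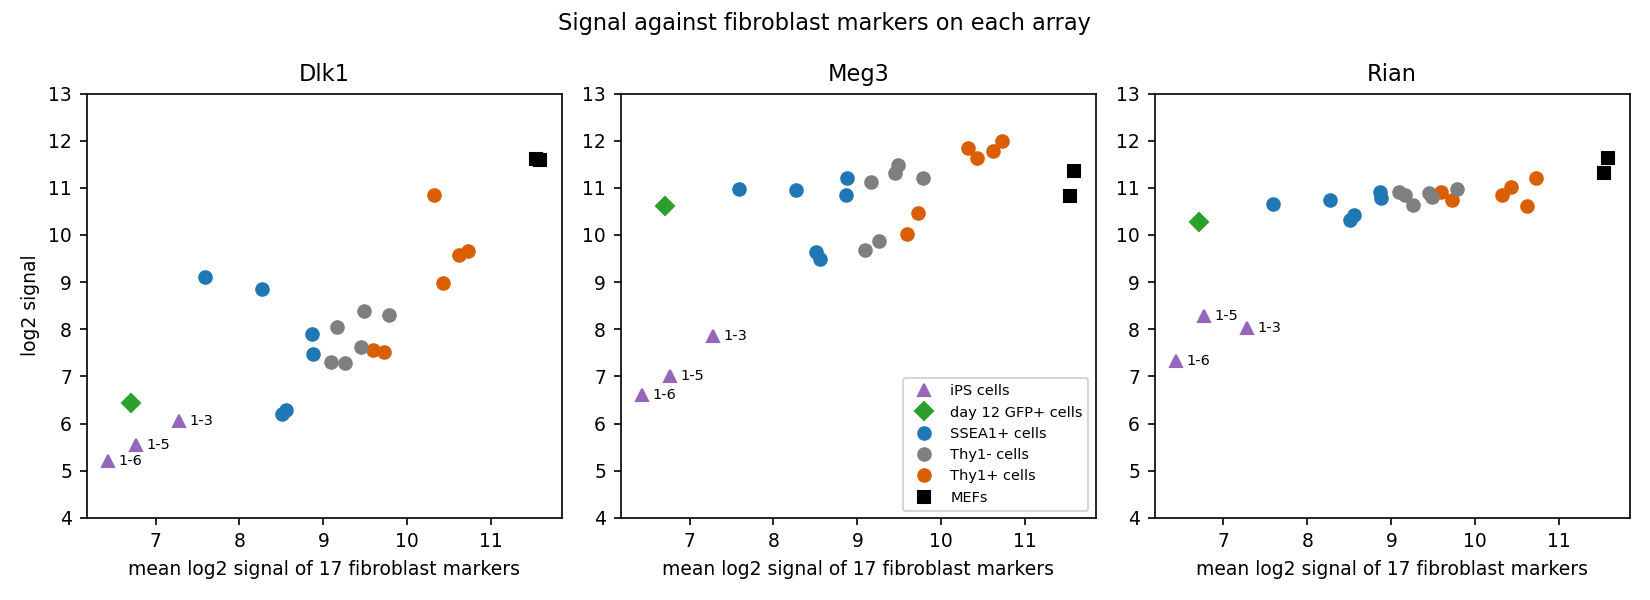
Log2 signal of Dlk1, Meg3 and Rian (vertical axes) against the mean log2 signal of 17 fibroblast markers (horizontal axes), 1 point per array. The GFP+ array, at a marker mean of 6.71, lies among the iPS arrays on the horizontal axis and above them for Meg3 and Rian. For Dlk1 the GFP+ and iPS signals all lie below the array median.

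Ordered by group mean, Dlk1 was highest in MEFs at 11.59 and lowest in iPS cells at 5.60. The gaps that exceeded its spread within groups (pooled SD 0.519, 9 degrees of freedom) were those below MEFs, between Thy1- cells of day 3 at 7.30 and GFP+ cells at 6.44, and between SSEA1+ cells of day 3 at 6.24 and iPS cells, the last between signals below the array median. The other neighbours in the order differed by less than this SD. Meg3 was highest in Thy1+ cells of day 12 at 11.99, with MEFs the seventh of the 15 groups. Its gaps beyond the pooled SD of 0.362 lay below GFP+ cells at 10.60, below Thy1+ cells of day 3 at 10.24 and, by 2.40, between SSEA1+ cells of day 3 at 9.56 and iPS cells at 7.16. Rian was highest in MEFs at 11.47. Its 14 groups other than iPS cells spanned 10.28 to 11.47 and its gaps beyond the pooled SD of 0.265 were the one below MEFs, of 0.27, and the one of 2.41 between GFP+ cells and iPS cells at 7.88.

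Across the 24 arrays Meg3 and Rian followed each other with a Pearson r of 0.89, Dlk1 and Meg3 with 0.75 and Dlk1 and Rian with 0.70. Within the 18 arrays of the 3 sorted fractions these were 0.56, 0.83 and 0.49. These arrays share days and processing, and the values are a description. For Meg3, Rian ranked 73rd among 11806 genes by this likeness over 24 arrays and 1703rd over 18. The genes most like Dlk1 over the 24 arrays were Atf5 (r = 0.93), Herpud1, Sox4, Arhgef10 and Prkar1b. Those most like Meg3 were Six5 (r = 0.97), Selenop, Epc1, Ptprz1 and Grcc10, and those most like Rian were Meis2 (r = 0.96), Josd2, Eif4g3, Cacfd1 and Dpp8. Within the sorted fractions the first in each list were Uap1l1 for Dlk1 (r = 0.94), Nrbp2 for Meg3 (r = 0.97) and Nfia for Rian (r = 0.86).

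Genes around the cluster were described from a list of 15 neighbours outside the imprinted genes. Of them 9 were measured, and between iPS cells and MEFs 2 were called higher and 1 lower (background 15.4% higher and 15.3% lower over 1 probe set per gene), with a median difference of 0.08 against 0.01 over all genes. Hsp90aa1, a chaperone gene, rose by 1.30 ± 0.11 and Ppp2r5c, a phosphatase subunit gene, by 1.08 ± 0.15, whereas Slc25a47, a mitochondrial carrier gene, differed by -1.58 ± 0.16. Between iPS and GFP+ cells 0 of the 9 were higher and 1, Slc25a47, was lower, with a difference of -1.16 ± 0.20 (background 3.98% higher and 3.24% lower). Yy1, a transcription factor gene, differed by 0.09 from MEFs and by -0.07 from GFP+ cells, and Wars, a tRNA synthetase gene, by 0.19 and -0.29, and none of these passed.

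Genes listed as imprinted elsewhere in the genome moved in both directions. The parental copy that these cells read was not measured. Of 14 measured genes listed as paternally expressed, 3 were higher and 6 lower in iPS cells than in MEFs (background 15.4% higher and 15.3% lower). Their median difference was -0.01. The growth factor gene Igf2 differed by -4.79, Ndn by -3.26 and Sgce by -2.81 on the log2 scale, while Mkrn3 rose by 2.12, Snrpn by 1.63 and Mcts2 by 1.09. Between iPS and GFP+ cells 1 of them was higher, the amino acid transporter gene Slc38a4 at 1.50 ± 0.19, and 4 were lower, Magel2 at -1.53 ± 0.18 first among them, followed by Ndn and Snrpn at -1.15 and -1.11 (background 3.98% higher and 3.24% lower). Igf2 differed by -1.18 ± 0.54 and did not pass (limma adjusted p = 0.147).

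Of 12 measured genes listed as maternally expressed, 1 was higher in iPS cells than in MEFs, Phlda2 at 2.84 ± 0.16. Another 4 were lower (background 15.4% higher and 15.3% lower). The largest falls were those of Tfpi2, a protease inhibitor gene, at -4.29 on the log2 scale, Osbpl5 at -3.08 and Cdkn1c, a cell cycle inhibitor gene, at -2.99. Between iPS and GFP+ cells 1 of the 12 was higher, Phlda2 at 1.39 ± 0.21, and 1 was lower, the calcitonin receptor gene Calcr at -1.25 ± 0.17, with a median of -0.33. These counts of 1 lie near the background of 3.98% higher and 3.24% lower. Cdkn1c, at -0.97 ± 0.21 (limma adjusted p = 0.00539), stayed just under 2-fold.

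Genes that set or keep DNA methylation and Polycomb marks, the machinery known to act on imprints, were high in both iPS and GFP+ cells. All 12 measured of 17 listed were higher in iPS cells than in MEFs (background 15.4% higher), with a median of 2.20, among them Dnmt3l by 5.44, Dppa3 by 5.41 and Dnmt3b by 4.50. Between iPS and GFP+ cells 0 of 12 were called in limma, with a median of 0.19, and only Dppa3, at 0.86 ± 0.23, had an adjusted p under 0.05 (0.0162). In SSEA1+ cells of day 3, 5 of the 12 were higher than in MEFs (background 7.32% higher), Uhrf1 by 2.11 ± 0.31 and Ezh2 by 1.59 ± 0.21 among them.

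Further lists held genes of the Notch pathway and of fat cell formation. Of 20 measured genes of the Notch pathway, 4 were higher and 3 lower in iPS cells than in MEFs, with a median of 0.41. These counts lie near the background of 15.4% higher and 15.3% lower. The ligand gene Dll1 rose by 2.91, and Dtx1 and Nrarp, both regulators of Notch signalling, by 3.29 and 2.89, whereas the target Hes1 differed by -1.09, Lfng, which modifies Notch receptors, by -1.09 and the coactivator gene Maml1 by -1.15. In SSEA1+ cells of day 3, 4 of the 20 were higher than in MEFs and 0 lower (background 7.32% higher and 8.8% lower), Nrarp by 4.47 ± 0.29 and the target Hey1 by 2.65 ± 0.24 first. Of 10 measured genes linked to fat cell formation, 0 were higher and 7 lower in iPS cells than in MEFs (background 15.4% higher and 15.3% lower), with a median of -2.19. The fatty acid binding protein gene Fabp4 differed by -3.85 and the lipase gene Lpl by -3.73. Sox9, a factor through which Dlk1 is known to restrain fat cell formation, differed by -3.54. In SSEA1+ cells of day 3, 5 of these 10 were already lower than in MEFs (background 8.8% lower), with Fabp4 at -2.82 ± 0.21.

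A smaller table, of another array design, held day 6 SSEA1+ cells sorted by EpCAM, an epithelial adhesion protein, with 2 arrays each of EpCAM+ and EpCAM- cells. Dlk1 read 5.47 and 5.41 in EpCAM+ cells and 5.20 and 5.25 in EpCAM- cells, all below the array median of 6.55 to 6.58. Meg3, on the probe set 1426758_s_at, read 6.96 and 7.002 in EpCAM+ cells and 7.64 and 7.62 in EpCAM- cells, and all 5 Meg3 probe sets of this design had lower means in EpCAM+ cells, by -0.32 to -0.89. Rian, on 1452899_at, read 11.37 and 11.38 in EpCAM+ cells and 11.54 and 11.95 in EpCAM- cells. By the 2-fold rule 0 of 9 probe sets were called in limma (background 0.579%). Without that rule 8 had an unadjusted p under 0.05. The share of all probe sets at that level, or at an adjusted p under 0.05 alone, was not counted. The background above thus does not apply to these probe sets. Of the Meg3 probe sets, 3 had an adjusted p under 0.05 with differences under 2-fold: 1439380_x_at at -0.89 ± 0.11 (limma adjusted p = 0.0347), 1452183_a_at at -0.85 ± 0.12 (limma adjusted p = 0.0456) and 1426758_s_at at -0.65 ± 0.08 (limma adjusted p = 0.0347). Levels of this design were not set against those of the 24 arrays.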

How the data were processed

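The values are log2 signals, 1 per probe set, as the authors deposited them. Per the submitters' processing notes they come from RMA, a background correction, quantile normalization and summary of probes, with no version given, and the set of arrays normalized as one is not given in the sources used here. No raw intensities were used here. The table of 24 arrays had 22716 probe sets. After 90 controls were left out, 22626 were tested, of which 18003 had 1 gene symbol in the array annotation, 287 several and 4336 none. Members, gene lists and tests were chosen with earlier results of these data known. One limma 3.58.1 fit (R 4.3.3) with 15 group means, 9 residual and 4.52 prior degrees of freedom gave all 18 comparisons, and groups of 1 array took the spread of the replicated ones. A call needed a Benjamini-Hochberg adjusted p under 0.05 and at least 2-fold. For gene lists the brightest probe set stood for a gene, and up to 3 called genes of largest difference per list and direction could be named, and any neighbour of the locus. The fit was tested on simulated data. A table of 4 arrays of another design was tested within itself. Alternatives were other scalings, filters, variance priors and fits, a replicate block and leaving out each array; 1 of them, days 9 and 12 without their lone arrays in turn, was chosen after seeing the data. Promoters came from RefSeq (GRCm38.p6), and Python 3.11.15 made the tables. Array probe sequences and the Dlk1 protein were not used here.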

Additional observations from a re-analysis of the deposited data

How the results depend on the processing

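Of 957 recomputed values for 64 results on the brightest probe sets and, in the iPS comparisons, all 8, 902 kept direction and call, 14 lost the call, 8 gained it and 33 changed sign. All iPS results kept direction and call. Counts of called probe sets moved as follows, and the cause was not tested. With no minimum fold they were 4 for day 3 Thy1+ cells minus MEFs, 4 for Thy1- cells day 6 minus day 3, 2 for late Thy1+ cells minus MEFs, 5 for SSEA1+ minus Thy1+ cells and 3 for EpCAM+ minus EpCAM- cells. The share of all probe sets with no minimum fold was not counted, so these counts have no background beside them. With only the compared groups in the fit the counts were 4 and 0 for day 6 minus day 3 in SSEA1+ and Thy1+ cells and 1 for late SSEA1+ cells minus day 6. With the day 6 Thy1+ M2 array out of the fit they were 4 for SSEA1+ cells day 6 minus day 3, 1 for late SSEA1+ cells minus day 6 and 0 for SSEA1+ minus Thy1+ cells. Whether M2 and M3 pair the samples is not known, as the labels do not say what they stand for. Over 21 pairs of 7 groups their differences correlated with r between -0.22 and 0.22 (median -0.02), which does not settle it. The replicate block gave 2 calls for late Thy1+ cells minus MEFs and a sign change of Meg3 in late SSEA1+ cells minus day 6 (0.022), and moved no other count of calls by over 1.5 times. Leaving out single arrays gave 4 to 7, 2 to 5 and 1 to 2 calls for day 3 SSEA1+, Thy1- and Thy1+ cells minus MEFs, 1 to 2 for late Thy1+ cells minus MEFs, 2 to 4 for Thy1+ day 6 minus day 3, 0 to 1 for SSEA1+ minus Thy1+ cells, 0 to 1 for the difference of their day 6 steps, a lowest of 1 for Thy1- and of 0 for SSEA1+ cells day 6 minus day 3, and 0 to 1 for late Thy1+ cells minus day 6. Sign changes were confined to differences that had not passed. For late minus day 6 they were Dlk1 in Thy1+ cells (-1.23 to 0.63 without single arrays, 0.63 without the M2 array), Dlk1 in Thy1- cells (-0.085 to 0.606), Meg3 in Thy1- cells (-0.15 to 0.21, -0.0030 after median scaling, -0.023 as a mean of probe sets), Meg3 in SSEA1+ cells (-0.26 to 0.12), Meg3 in Thy1+ cells (-0.081 as a mean of probe sets) and Rian in Thy1+ cells (-0.32 to 0.27, 0.0095 after quantile scaling). For the SSEA1+ minus Thy1+ step they were Dlk1 (-1.86 to 0.0052) and Meg3 (-0.25 to 0.19, 0.0033 after quantile scaling, 0.067 without the M2 array, 0.11 as a mean of probe sets). For the SSEA1+ minus Thy1+ gap they were Meg3 (0.073 as a mean of probe sets) and Rian (-0.092 to 0.59). Over all days they were Rian in Thy1- minus Thy1+ cells (-0.15 to 0.061) and Dlk1 in SSEA1+ minus Thy1- cells (-0.20 to 0.13). Groups of 1 array, the unknown normalization set and low signals near the array background limit precision.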
